A study of Homo sapiens with 23 samples.

Results

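The genes described here are 39 genes of cell-matrix adhesion: 14 integrin subunits, 7 laminin chains and 18 collagen chains. They form a list of names with no threshold on their values, but the list was chosen with earlier results of these data known. Counts of these genes set beside shares of all genes are therefore descriptions. All 39 were found in each of the 3 count tables of the series. The tables list 60683 genes for LNCaP with overexpression or hairpins, 58174 for LAPC4 and 54657 for the drug experiment. The series follows ONECUT2 (OC2), a transcription factor of the ONECUT homeodomain family, by RNA sequencing of 23 libraries from the human prostate cancer cell lines LNCaP and LAPC4. LNCaP cells, grown in RPMI-1640 with serum, came as control (2 libraries), OC2 overexpression (2), a control hairpin named shCon (2) and a hairpin against OC2 named shOC2 (2). LAPC4 cells, grown in IMDM with serum and the synthetic androgen R1881 at 1 nM, came as vector (3) and OC2 overexpression (3). In the drug experiment LNCaP cells received, for 7 days, vehicle (3), the androgen receptor antagonist enzalutamide at 10 µM (3), or enzalutamide at 10 µM together with an OC2 inhibitor at 10 µM, called the combination (3). How OC2 or the hairpins were introduced, and whether a line is a clone or a pool, is not stated in the labels. The labels also do not say that replicates came from separate cultures, so the p-values measure the spread between libraries, which may be technical.

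Integrins are receptors made of one alpha and one beta subunit that span the plasma membrane and tie the matrix outside to the actin or keratin skeleton inside. ITGB1 pairs with many alpha subunits, ITGAV pairs with ITGB3, ITGB5, ITGB6 and ITGB8, and ITGA6 joins ITGB4 in hemidesmosomes, the junctions that hold epithelial cells to their basement membrane. Laminins are secreted trimers of an alpha, a beta and a gamma chain and, with type IV collagen, build that basement membrane. Collagens are triple helices: types I, III and V form fibrils, type IV forms the network of the basement membrane, type VI forms beaded filaments, type VII forms anchoring fibrils, and types XIII and XVII sit in the cell membrane. In the prostate, basal cells normally carry most of the hemidesmosome genes.

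The libraries held 20963995 to 30465978 counts. Levels are given as CPM, counts scaled to a common library total within a table (the usual CPM unit, with edgeR scaling factors). ONECUT2 was 11.4-fold higher in LNCaP overexpression than in control, 57.7-fold higher in LAPC4 overexpression than in vector, and fell by 0.77 on the log2 scale with the hairpin against OC2 (edgeR quasi-likelihood test, adjusted p = 9.78e-09, 2.85e-10 and 4.84e-05), so ONECUT2 moved in the direction of each label. Reads of a transgene and of the cell's own ONECUT2 cannot be told apart. Both lines carried luminal prostate markers (a summed 1886 to 5510 CPM for 6 genes), while 6 fibroblast markers summed to at most 5.28 CPM, 4 endothelial markers to under 20 CPM (mostly VWF, highest in vehicle) and 4 blood cell markers to at most 22.7 CPM (mostly CD68). The part of these low signals in the collagen values was not tested. No replicate pair differed by less than sampling noise. The enzalutamide column named Enza_7D stood apart from the other 2 of its group (Spearman 0.978 and 0.982 across genes, against 0.996 between those 2), as did LAPC4 vector replicate 3 (0.988 and 0.992, against 0.996). The enzalutamide columns hold whole counts, whereas 41.0% of the values above 0 in vehicle and 42.1% in the combination are not whole. In the vehicle libraries 50 genes averaged at least 20 CPM and had at most 3 counts in every enzalutamide library, against 0 genes for the combination libraries. None of these 50 is among the 39 genes, but counting and treatment cannot be told apart in the enzalutamide values below.

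The type IV collagen genes lie as head-to-head pairs that are read in opposite directions, and the stretches between their start sites are shown because the pairs behaved differently in these cells. COL4A1 and COL4A2 start 127 bases apart on chromosome 13, and the 126 bases between the RefSeq start sites (GRCh38.p14, plus strand) are chr13:110307158-110307283. COL4A6 and COL4A5 start 380 bases apart on the X chromosome, by the COL4A6 start nearest to COL4A5. The 121 bases covered by the promoter windows of both genes at these starts are chrX:108439588-108439708. COL4A6 has another promoter window, chrX:108438373-108438672, which holds 1 GGGCGG match and is not shown. Capitals mark the motifs CCAAT and GGGCGG on either strand.
COL4A1/COL4A2: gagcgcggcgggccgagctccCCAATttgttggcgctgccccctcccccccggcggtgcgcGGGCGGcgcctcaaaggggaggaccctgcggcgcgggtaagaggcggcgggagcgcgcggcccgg
COL4A6/COL4A5: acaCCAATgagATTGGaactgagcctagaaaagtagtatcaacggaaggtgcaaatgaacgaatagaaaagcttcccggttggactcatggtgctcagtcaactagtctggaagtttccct
The first stretch has 80.2% G and C, with 1 CCAAT match and 1 GGGCGG match. The second has 44.6% G and C, with 2 CCAAT matches and 0 GGGCGG matches. Of the same number of bases just before the start in all 35116 RefSeq promoters, 21.1% (126 bases) and 20.6% (121 bases) hold CCAAT, and 34.6% and 34.1% hold GGGCGG. The second stretch lies between start sites at 108439458 and 108439838 and adjoins neither. The shares for 121 bases thus come from positions nearer the start.

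Both genes of the chromosome 13 pair were low in LAPC4 vector cells and both rose with OC2. COL4A1 was 0.205, 0.448 and 0.0697 CPM in vector replicates 1 to 3 and 26.4, 24.8 and 24.8 CPM in the overexpression libraries, and COL4A2 was 1.64, 2.10 and 1.67 CPM against 59.2, 55.5 and 57.1 CPM. No overexpression library came near the vector range for either gene. In LNCaP the same pair was uneven: COL4A1 had at most 2 counts in any library of either LNCaP table, while COL4A2 reached 17.4 and 13.3 CPM in the control libraries and stayed between 0.769 and 4.24 CPM in all other LNCaP libraries. On the X chromosome the COL4A5 gene was present throughout, from 37.5 to 136 CPM, and COL4A6 from 0.965 to 5.64 CPM.

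The LAPC4 comparison asked which genes change when OC2 is raised in that line. Of the 39 genes 33 passed the filter on low counts, 21 were higher with OC2 and 4 lower (edgeR adjusted p below 0.05), where 32.1% of all 16904 tested genes were higher and 29.0% lower. The median log2 fold change was 1.21 for the 33 and 0.00 for all tested genes. The part of the choice of the list in this difference was not tested. The larger rises included ITGB3 and COL1A2, which had 2 and 4 counts in all vector libraries together. They also included integrin alpha subunits, the beta-3 laminin chain and type IV, XIII and XVII collagens. COL7A1 and LAMA5 made up the larger falls. The call of ITGB5 was lost without overexpression replicate 1. In bulk RNA, a change in the share of cells that express a gene and a change in RNA per cell cannot be told apart. Without vector replicate 3 the counts were 23 higher and 6 lower. Calls over all genes, in either direction, rose as well, from 10329 of 16904 to 12089 of 17494.

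Among the integrins 10 rose, 1 fell, 2 were not called and ITGA11 was too low to test. ITGA3, a laminin-binding alpha subunit encoded at chr17:50055968-50090481 (hg38, plus strand), was 3.18, 2.69 and 2.44 CPM in vector and 168, 151 and 172 CPM with OC2, with no overlap (164 ± 11 against 2.77 ± 0.38, SD, n = 3). The log2 fold change was 5.88 (SE 0.11, edgeR adjusted p = 1.42e-10). ITGA5, the alpha subunit of the fibronectin receptor, rose from 5.55, 5.17 and 4.67 CPM to 77.2, 78.7 and 78.6 CPM, a log2 fold change of 3.93 (SE 0.08, edgeR adjusted p = 3.12e-10). All 3 overexpression libraries were high and none overlapped vector. ITGB3, a partner of ITGAV, had 2 counts in all 3 vector libraries together and 6.01, 6.08 and 5.58 CPM with OC2. That ratio was 256 with an exact 95% interval of 70.5 to 2119 for counting error. Of its annotated exon bases 51.6% are shared with AC068234.1, and since strand-specific counting is not stated, ITGB3, and likewise ITGB6 (20.6% shared) and COL18A1 (16.4%), may include reads of a neighbour.

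ITGA6 was already at 132, 144 and 176 CPM in vector and rose 3.61-fold to 526, 573 and 532 CPM. ITGA1, a collagen-binding subunit, rose 7.10-fold from 1.16, 0.862 and 0.766 CPM to 6.57, 7.47 and 5.88 CPM. ITGA2, the other common collagen-binding subunit, rose 2.04-fold and ITGB8 2.31-fold. Smaller rises were called for ITGAV (1.72-fold), ITGB1 (1.74-fold, from 493, 497 and 519 CPM to 863, 902 and 859 CPM) and ITGB5 (1.19-fold). ITGB4 went the other way from its partner ITGA6: it was 61.2, 63.5 and 56.0 CPM in vector and 52.9, 43.0 and 49.6 CPM with OC2, 1.24-fold lower (edgeR adjusted p = 0.0115). The groups did not overlap for ITGB4 either. ITGA10 and ITGB6 were not called, with log2 fold changes of -0.07 (SE 0.21) and 0.10 (SE 0.31).

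Of the 7 laminin chains 2 rose, 2 fell, LAMC1 and LAMB2 were not called and LAMA4 was not tested. LAMB3, the beta chain of the hemidesmosome laminin (chr1:209614870-209652466, minus strand), was 7.63, 7.17 and 4.01 CPM in vector and 333, 289 and 315 CPM with OC2 (log2 fold change 5.64, SE 0.19, edgeR adjusted p = 7.18e-09). Its alpha partner LAMA3 went from 181, 171 and 148 CPM to 119, 122 and 131 CPM, 1.35-fold lower, so the chains of that trimer moved in opposite directions with no overlap for either. LAMA5, the alpha chain of most mature epithelial basement membranes, fell by 1.34 on the log2 scale, from 557, 507 and 365 CPM to 198, 161 and 205 CPM. LAMB1 rose 2.53-fold, from 35.6, 32.8 and 24.0 CPM to 77.2, 77.7 and 79.1 CPM. Vector replicate 3 was the lowest vector library for LAMA3, LAMA5, LAMB1, LAMB2 and LAMB3. LAMB2 was 168, 151 and 86.0 CPM in vector and 108, 98.8 and 104 CPM with OC2, and without vector replicate 3 its log2 fold change of -0.38 became -0.63 and passed the test (edgeR adjusted p = 1.16e-09).

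Of the 18 collagen chains 9 rose, 1 fell, 4 were not called and COL3A1, COL5A1, COL6A3 and COL8A1 were too low to test. The log2 fold change was 6.69 for COL4A1 (SE 0.26, 103-fold, edgeR adjusted p = 1.96e-08) and 4.98 for COL4A2 (SE 0.11, 31.6-fold), while COL4A5 (0.03, SE 0.07) and COL4A6 (0.43, SE 0.20) were not called. COL1A2, the second chain of type I collagen, went from 0.0685, 0.069 and 0 CPM to 7.13, 8.72 and 10.4 CPM, whereas the first chain, COL1A1, was not called at 3.80, 4.41 and 2.93 CPM against 5.15, 3.46 and 4.78 CPM. COL13A1 was 0.0342, 0.103 and 0.0697 CPM in vector and 10.2, 8.93 and 8.49 CPM with OC2 (126-fold). COL17A1, the hemidesmosome collagen, was 0.205, 0.138 and 0.0348 CPM against 3.20, 4.01 and 3.14 CPM (26.4-fold). COL6A2 rose 8.78-fold, from 4.38, 4.65 and 4.08 CPM to 45.0, 33.6 and 36.7 CPM, while COL6A1, the chain it assembles with, was not called (log2 fold change -0.19, SE 0.14). COL12A1, a fibril-associated chain, rose 2.98-fold, COL18A1, the basement membrane chain that yields endostatin, 2.69-fold and COL5A2 2.53-fold. The anchoring fibril chain COL7A1 fell 4.24-fold, from 101, 85.7 and 46.8 CPM to 19.4, 17.2 and 18.4 CPM. In LAPC4 overexpression the fibroblast markers summed to 4.45 to 5.28 CPM, against 1.08 to 2.02 CPM in vector, mostly LUM at 3.86 and 0.882 CPM, with FAP at 0 in all overexpression libraries. Their part in the collagen values was not tested.

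**Figure D1:**
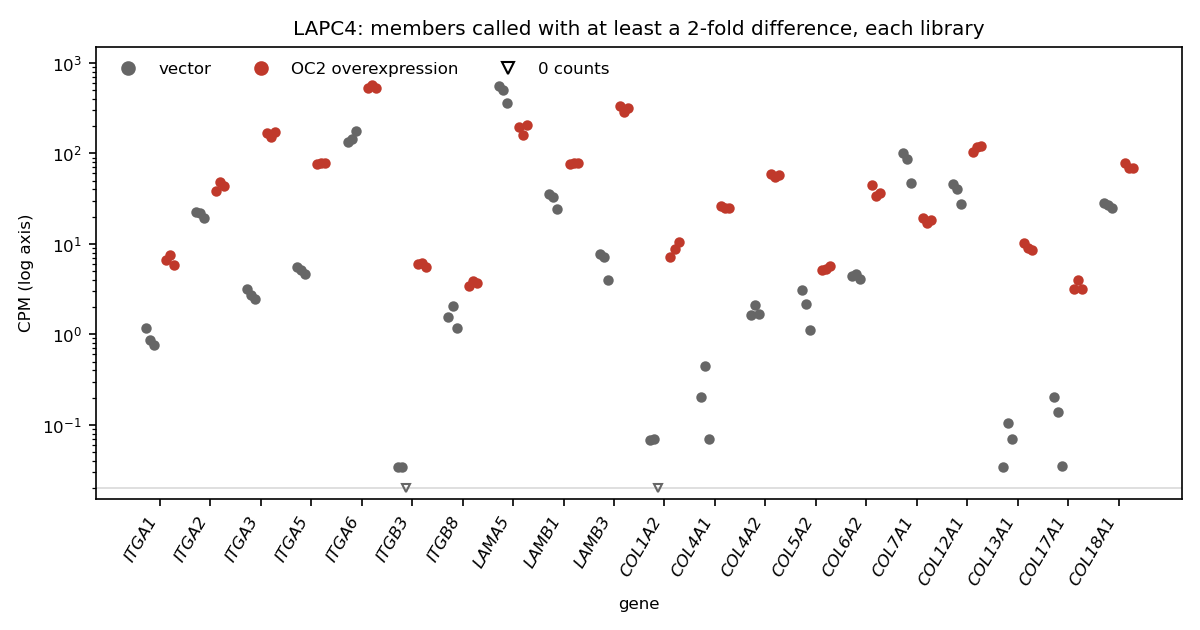
CPM of the 20 members called with at least a 2-fold difference in LAPC4 (log axis), one point per library, grey for vector and red for OC2 overexpression, with open triangles on the bottom line for libraries with 0 counts. COL7A1 and LAMA5 are the members with the red points below the grey ones. No gene shown has overlapping groups, which the selection of these genes favours. The share of all genes with such a separation was not computed.

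In LNCaP the question was the same, but the 2 reference groups, control and shCon, differed from each other in these genes, so overexpression was set against each. The overexpression libraries are shared by both comparisons. Against control 30 genes were tested, 12 were higher with OC2 and 8 lower, where 31.6% of all tested genes were higher and 29.3% lower, and the median log2 fold change was 0.39 against 0.02 for all genes. Against shCon 29 were tested, 9 were higher and 14 lower, where 33.2% and 30.8% of all genes were, with medians of -0.03 and 0.01. Between the references themselves 28 were tested, 13 were higher in shCon and 8 lower, where 28.3% and 28.1% of all genes were, with medians of 0.17 and -0.000768.

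ITGA6 was higher with OC2 by either reference: 84.6 and 83.9 CPM in overexpression, 30.6 and 34.7 CPM in control, and 44.4 and 44.1 CPM in shCon, 2.55-fold and 1.90-fold (edgeR adjusted p = 8.63e-07 and 3.99e-07). Its partner ITGB4 was lower by either, at 0.238 and 0.332 CPM in overexpression, 3.44 and 4.32 CPM in control, and 2.77 and 1.54 CPM in shCon, 13.5-fold and 7.48-fold. These groups did not overlap for either gene, and ITGB4 rested on 5 and 7 counts in the overexpression libraries. ITGA2 was 20.9 and 21.8 CPM with OC2, 12.4 and 16.7 CPM in control and 7.44 and 7.15 CPM in shCon, higher by 1.45-fold and 2.91-fold. ITGA3 (1.97-fold and 1.34-fold), ITGB5 (1.40-fold and 1.39-fold) and ITGB8 (4.36-fold and 8.34-fold, from under 0.2 CPM) were also called higher against both. ITGA3 against shCon was not called by DESeq2, with library totals or when any 1 library was left out, and ITGB8 was not called by DESeq2 against control nor with no filter against shCon. Against shCon the calls of ITGB4 and ITGB8 were also lost without either overexpression library. The log2 fold changes were then -2.67 and -3.15 for ITGB4 and 3.29 and 2.83 for ITGB8. Against control the call of ITGB8 was lost without control replicate 1 or overexpression replicate 2. ITGAV (1.39-fold and 1.45-fold) and ITGB1 (1.40-fold and 1.16-fold) were lower by both. ITGA5 turned with the reference: it was 30.6 and 28.7 CPM with OC2, 12.6 and 12.8 CPM in control, and 52.3 and 45.3 CPM in shCon, so that it was 2.31-fold higher against control and 1.65-fold lower against shCon. ITGA1 was not called against control and 1.88-fold higher against shCon. ITGA11, at 1.89 and 1.42 CPM in control, was at or under 0.208 CPM in the overexpression and shCon libraries, 9.74-fold lower in overexpression than in control.

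LAMB2, a beta chain related to LAMB1 (chr3:49121114-49133118, minus strand), showed the widest gap between the references. It was 9.78 and 9.66 CPM in control (9.72 ± 0.083, SD, n = 2), 103 and 108 CPM in overexpression (106 ± 3.6) and 167 and 148 CPM in shCon (158 ± 13). Against control it was 10.7-fold higher with OC2 and against shCon 1.5-fold lower (edgeR adjusted p = 2.96e-09 and 3.49e-05), and shCon exceeded control 16.2-fold. In the vehicle libraries of the drug table, scaled separately, LAMB2 was 149 to 160 CPM. LAMC1, the common gamma chain, was higher with OC2 by both references, at 345 and 362 CPM against 175 and 175 CPM in control and 220 and 219 CPM in shCon, 1.99-fold and 1.60-fold. LAMB3 was not called against control (edgeR adjusted p = 0.06) and 2.66-fold lower than in shCon. LAMA3 was 1.45-fold lower than in control and not called against shCon. LAMA4, an alpha chain of vascular basement membranes, was called higher against both but stood on 14 and 13 counts in overexpression, 6 and 6 in control and 1 and 1 in shCon. Its call against control was lost in DESeq2, with no filter, with all 4 groups in the fit and when any 1 library was left out. LAMB1 was not called in either comparison.

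Among the collagens the choice of reference changed most of the picture. COL4A2 was 1.33 and 0.853 CPM with OC2, 14.1-fold lower than in control and 1.79-fold lower than in shCon (1.65 and 2.25 CPM). The call against shCon was lost in DESeq2, with no filter and when any 1 library was left out, where its log2 fold change ran from -1.18 to -0.54. COL6A1 was 1.29-fold and 1.30-fold lower, COL4A5 was 1.51-fold lower than in control and not called against shCon, and COL6A2 was not called against control and 1.58-fold lower than in shCon. COL5A1 was 2.80 and 1.99 CPM with OC2, 0.775 and 0.801 CPM in control, and 6.24 and 4.28 CPM in shCon, hence 2.99-fold higher and 2.20-fold lower. The lower call of COL5A1 against shCon was lost with no filter and when either overexpression library or shCon replicate 1 was left out. COL5A2, which forms type V collagen with COL5A1, was 3.74-fold higher against control and not called against shCon. COL18A1 was not called against control (11.3 and 11.0 CPM against 11.2 and 9.62 CPM) and 3.46-fold lower than in shCon (41.0 and 36.0 CPM). COL1A1 was likewise not called against control and 2.44-fold lower than in shCon, and COL7A1 not called and 1.90-fold lower. COL4A6 was not called against control and 2.22-fold higher than in shCon. Types XII, XIII and XVII and COL1A2, all called in LAPC4, were at most 0.523 CPM in these LNCaP groups and were not tested there. COL3A1 was called 2.81-fold higher against control, on few counts, and not called by DESeq2 or when any 1 library was left out. Without overexpression replicate 1 or 2, which left 1 library in that group, fewer members were called lower against shCon. Fewer of all tested genes were called then as well.

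The hairpin against OC2 was compared with shCon, and ONECUT2 was 12.1 and 12.2 CPM against 20.4 and 21.3 CPM. Of 30 members tested 16 were higher with shOC2 and 11 lower, where 27.3% of all 16585 tested genes were higher and 26.8% lower, and the median log2 fold change was 0.39 against 0.00 for all genes. Without shOC2 replicate 1 or 2, which left 1 library in that group, fewer members were called in either direction. Fewer of all tested genes were called then as well. DESeq2 called 13 higher and 5 lower. Over all genes it called 6182 in either direction, against 8969 in edgeR. All 5 laminin chains that passed the test were higher with shOC2, and the collagens divided into 4 higher and 7 lower.

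LAMC1 (chr1:183023460-183145592, plus strand) was 904 and 840 CPM with shOC2 and 220 and 219 CPM in shCon, a log2 fold change of 2.00 (SE 0.06, edgeR adjusted p = 7.41e-09). With OC2 overexpression it had been 345 and 362 CPM, so both arms were above shCon, a reference that the comparisons share. LAMA5 rose 1.74-fold (203 and 179 CPM against 116 and 105 CPM), LAMB1 2.15-fold (7.06 and 8.10 CPM against 4.26 and 2.83 CPM), LAMB2 1.36-fold and LAMA3 1.26-fold. The groups did not overlap for any of these 5 chains, which were picked because they were called. How often this holds over all genes was not computed. LAMA3 was not called with no filter. Without shOC2 replicate 1 the calls of LAMA3, LAMB1 and LAMB2 were lost, with log2 fold changes of 0.20, 1.20 and 0.43. That of LAMB1 was also lost without shOC2 replicate 2 (log2 fold change 1.01). LAMB3 was not called, at 3.69 and 3.71 CPM against 3.72 and 3.58 CPM.

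ITGA3 was 20.9 and 18.6 CPM with shOC2 against 7.40 and 6.95 CPM, 2.77-fold higher, and ITGAV 162 and 147 CPM against 67.6 and 66.8 CPM, 2.31-fold higher. ITGB1 rose 1.42-fold, from 327 and 325 CPM to 457 and 466 CPM, and ITGA2 1.76-fold. ITGB8 (10.5-fold, 18 and 22 counts against 4 and 0), ITGA11 (3.85-fold, 11 and 14 counts against 2 and 5) and ITGB4 (1.71-fold) were also called higher. ITGB5 fell by 0.55 on the log2 scale, from 58.3 and 53.3 CPM to 37.9 and 38.1 CPM. ITGA1, ITGA5 and ITGA6 were called lower by 1.91-fold, 1.15-fold and 1.15-fold, with adjusted p-values from 0.0166 to 0.0489 in edgeR. DESeq2 called none of ITGA1, ITGA5, ITGA6, ITGA11 and ITGB4, and the call of ITGB4 was also lost with library totals and with no filter.

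COL12A1 was 7.80 and 5.97 CPM with shOC2 and at most 0.523 CPM in the other 6 libraries of that table, 27.2-fold above shCon (log2 fold change 4.77, SE 0.30, edgeR adjusted p = 1.37e-06). COL6A1 rose 1.33-fold and COL4A5 1.30-fold. COL4A6 was called 1.47-fold higher (edgeR adjusted p = 0.046), a call lost in DESeq2, with library totals, with no filter and when any 1 library was left out. Of the fibrillar chains COL1A1 was called 1.42-fold lower, COL3A1 5.25-fold, COL5A1 3.09-fold and COL5A2 1.65-fold, and COL1A2 was not tested. DESeq2 did not call COL3A1 or COL5A2, without a filter COL1A1 and COL5A2 were not called, and without shOC2 replicate 1 none of the 4 was called by edgeR. COL5A1 was 1.75 and 1.63 CPM with shOC2 against 6.24 and 4.28 CPM, and COL3A1 stood on 2 and 4 counts against 19 and 17. COL7A1 (2.22-fold), COL4A2 (2.22-fold, not called by DESeq2) and COL18A1 (1.5-fold) were lower as well. SERPINH1, the chaperone of procollagen, had 0 counts in both shCon libraries, 368 in the overexpression libraries and 737 in control. PARVA, which links integrins to actin, had 2 counts in shCon, 424 in overexpression, 950 in shOC2 and 1454 in control. SERPINH1 was also low in the vehicle libraries of the drug table, at 0.372 CPM. The part of the SERPINH1 and PARVA gaps in the shCon values of the members was not tested.

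**Figure D2:**
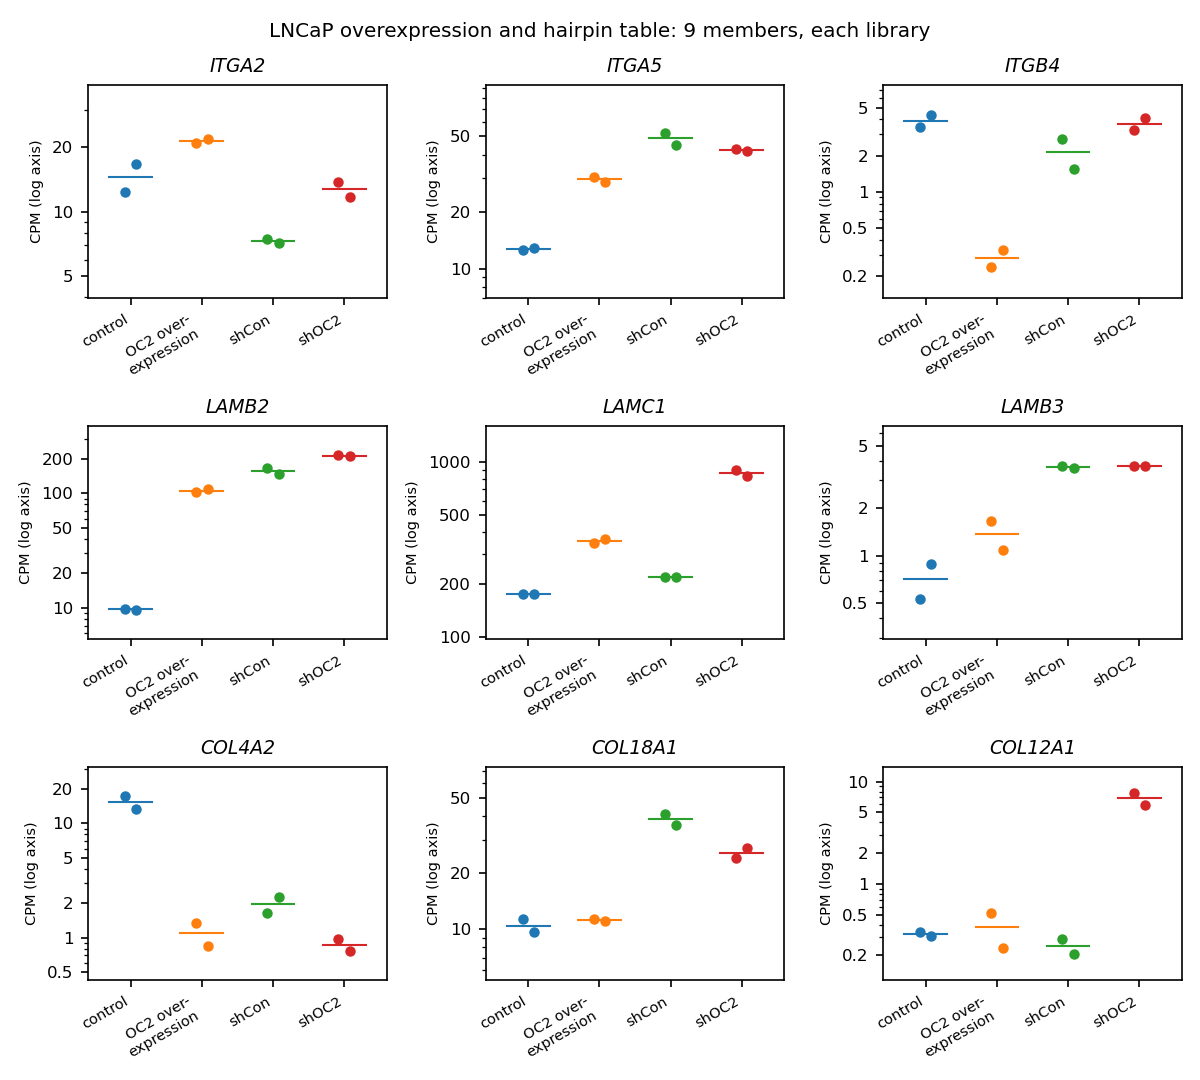
CPM of 9 members in the LNCaP overexpression and hairpin table (log axis), one point per library and a line at the group mean. LAMB2 is lowest in control, COL4A2 highest in control, ITGB4 lowest in overexpression, and LAMC1 and COL12A1 highest in shOC2.

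Enzalutamide against vehicle asked how androgen receptor blockade changes LNCaP. Of 30 members tested 14 were higher and 2 lower, where 34.7% of all 17423 tested genes were higher and 35.6% lower, with a median log2 fold change of 0.44 against 0.01 for all genes. The members that rose included ITGB4, ITGA2, LAMB1 and both type V collagen chains. With scaling by library totals alone, the median over all genes was 0.35, so that shifts of that size depend on the scaling, and 20 members were then called higher and 1 lower. Without Enza_7D 15 were called higher and 3 lower. Calls over all genes, in either direction, were then 13041 of 17823, against 12258 of 17423 with all columns.

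ITGB4 was 2.88, 2.63 and 2.51 CPM in vehicle and 19.9, 18.6 and 17.0 CPM with enzalutamide, a log2 fold change of 2.79 (SE 0.13, edgeR adjusted p = 2.77e-08). ITGA2 was 8.09, 7.60 and 8.07 CPM in vehicle and 27.1, 64.0 and 64.2 CPM with enzalutamide, where Enza_7D was the lowest of the 3, and the log2 fold change was 2.71 (SE 0.30). ITGA3 rose 2.18-fold, from 15.6, 13.2 and 16.1 CPM to 40.1, 30.2 and 27.6 CPM. For none of these 3 genes, picked from those called, did the groups overlap. The share of all genes with such a separation was not computed. ITGB5 (1.68-fold), ITGA5 (1.23-fold) and ITGB1 (1.20-fold) rose less, the calls of ITGA5 and ITGB1 were lost without vehicle replicate 3, and ITGA6 was called 1.22-fold lower, a direction that turned with library totals (log2 fold change 0.06). The integrins ITGA11, ITGB3, ITGB6 and ITGB8 were too low to test.

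LAMB1 was 2.93, 2.29 and 2.61 CPM in vehicle and 16.2, 16.3 and 13.2 CPM with enzalutamide, 5.84-fold higher (edgeR adjusted p = 6.53e-07). LAMA3 rose 1.46-fold, from 244, 222 and 235 CPM to 410, 324 and 289 CPM. LAMB2 was called 1.8-fold higher, but 449 CPM came from Enza_7D and the other enzalutamide columns had 200 and 192 CPM, beside 160, 149 and 160 CPM in vehicle, and the call was lost without vehicle replicate 2. LAMA5, LAMB3 and LAMC1 were not called. COL5A1 rose 11.0-fold, from 1.37, 0.780 and 1.35 CPM to 19.1, 8.53 and 10.9 CPM, and COL5A2 8.23-fold, from 2.44, 2.29 and 2.70 CPM to 36.9, 11.9 and 12.5 CPM. Both were highest in Enza_7D, without which the log2 fold change of COL5A2 was 2.29 in place of 3.04. COL6A2 (2.32-fold), COL4A5 (1.99-fold, from 66.1, 63.4 and 63.9 CPM to 113, 136 and 136 CPM) and COL3A1 (3.64-fold, at most 2.77 CPM) also rose. COL12A1 was called 3.28-fold lower on 4, 7 and 3 counts against 12, 4 and 14, a call lost without vehicle replicate 3. COL7A1 was 19.1, 1.96 and 5.82 CPM over the 3 enzalutamide columns and 12.3, 6.43 and 12.9 CPM in vehicle. It was not called with all columns, and without Enza_7D its log2 fold change was -1.44 (edgeR adjusted p = 0.00871).

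The combination was compared with vehicle and with enzalutamide alone. These comparisons share the combination libraries, and the comparisons with vehicle share the vehicle libraries. Against vehicle 13 of 30 members were higher and 7 lower, where 23.2% of all genes were higher and 23.6% lower, with a median of 0.26 against 0.01. Against enzalutamide 5 were higher and 16 lower, where 31.5% and 30.5% of all genes were, with a median of -0.47 against -0.02. None of the 10 integrins tested was higher in the combination than in enzalutamide and 7 were lower. Without Enza_7D there were 9 higher and 16 lower, and without either of the other columns 2 were higher. Calls over all genes, in either direction, were 10789 of 17423 with all columns and 12261 of 17823 without Enza_7D. Without Enza_7D_1 they were 10123 of 17850, and without Enza_7D_2 9735 of 17773.

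ITGA2 was 10.8, 7.76 and 9.81 CPM in the combination, not called against vehicle and 5.47-fold lower than with enzalutamide (edgeR adjusted p = 4.59e-05). ITGB4 was 10.7, 12.5 and 11.7 CPM, between the other groups with no overlap, 4.35-fold above vehicle and 1.59-fold below enzalutamide. ITGA3 was 30.3, 36.8 and 27.1 CPM, 2.10-fold above vehicle and not called against enzalutamide. ITGA6, at 30.1, 29.3 and 26.5 CPM, was lower than in both, by 1.82-fold and 1.5-fold, and ITGA1, at 16, 10 and 16 counts, by 3.03-fold and 2.58-fold. ITGA5 was 1.19-fold below vehicle, a call lost with library totals, with no filter and when any of 4 libraries was left out, and 1.46-fold below enzalutamide. ITGAV and ITGB5 were 1.41-fold and 1.51-fold lower than with enzalutamide. Against vehicle neither was called, but ITGAV was called lower without combination replicate 2 (log2 fold change -0.37). ITGB1 was 1.24-fold above vehicle and not called against enzalutamide, where its log2 fold change of 0.06 turned to -0.20 with library totals.

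LAMB3 was 0.589, 1.47 and 0.545 CPM in the combination, 5.12, 7.60 and 3.91 CPM in vehicle and 10.5, 4.73 and 7.57 CPM with enzalutamide. The combination lay below all 6 other libraries, 6.36-fold lower than vehicle and 8.75-fold lower than enzalutamide (edgeR adjusted p = 0.00087 and 0.000141). LAMB1, at 7.35, 7.67 and 5.45 CPM, lay between the others, 2.61-fold above vehicle and 2.23-fold below enzalutamide. LAMB2 was 485, 509 and 460 CPM, 3.10-fold above vehicle and 1.73-fold above enzalutamide, and LAMA5 was 278, 361 and 243 CPM, 2.42-fold and 1.75-fold above. For LAMA5 and LAMB2 the highest enzalutamide value (235 and 449 CPM) was that of Enza_7D. The call of LAMB2 against enzalutamide was lost in DESeq2, with library totals, with only the 2 groups in the fit and when any of 4 libraries was left out, and that of LAMA5 with library totals. LAMA3 was 1.73-fold lower than with enzalutamide and not called against vehicle. With only the 2 groups in the fit, LAMA3 was called lower than vehicle, with or without the replicate block (log2 fold change -0.25). LAMC1 was 1.43-fold below vehicle. It was also called 1.27-fold below enzalutamide, where the groups overlapped (229, 304 and 230 CPM against 333, 340 and 293 CPM) and the call was lost with only the 2 groups in the fit and without combination replicate 1 or 3 or Enza_7D_1.

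COL5A2 was 17.6, 25.7 and 17.9 CPM in the combination, 8.23-fold above vehicle. Against enzalutamide its log2 fold change was -0.000815 (SE 0.38), and without Enza_7D it was 0.75 (edgeR adjusted p = 0.00153). COL5A1, at 3.72, 6.20 and 4.13 CPM, was 4-fold above vehicle and 2.74-fold below enzalutamide. COL6A1 (1.83-fold), COL6A2 (2.84-fold), COL18A1 (2.36-fold), COL3A1 (2.89-fold) and COL4A5 (1.20-fold) were called higher than in vehicle. The calls of COL3A1 and COL4A5 were each lost when any of 5 libraries was left out. COL6A1 and COL18A1 were called 1.53-fold and 1.81-fold above enzalutamide, and both calls were lost with library totals and with only the 2 groups in the fit. COL4A6 fell to 1.45, 0.965 and 1.04 CPM, 2.34-fold below vehicle and 3.12-fold below enzalutamide, and COL4A5 was 1.67-fold below enzalutamide. COL12A1 stood on 17, 14 and 19 counts, 5.11-fold above enzalutamide and not called against vehicle. COL17A1 was called 2.89-fold below vehicle on 3, 11 and 2 counts but not by DESeq2 or with no filter, and COL13A1 3.39-fold below enzalutamide on 8, 3 and 1 counts.

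**Figure D3:**
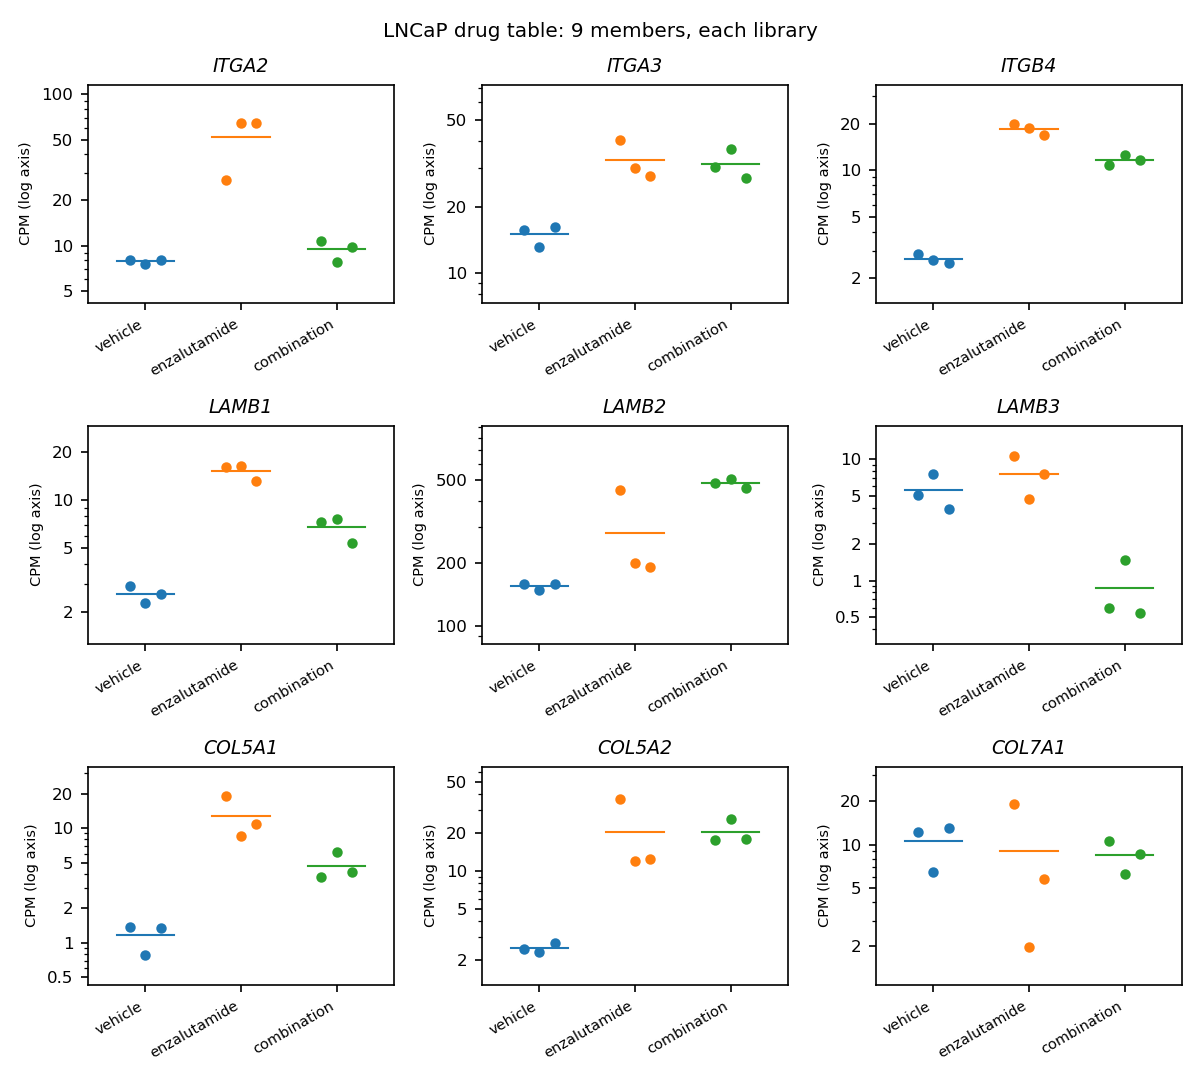
CPM of 9 members in the drug table (log axis), one point per library and a line at the group mean. ITGA2 is high in enzalutamide alone, ITGB4 and LAMB1 step down from enzalutamide to the combination, LAMB3 is lowest in the combination, and COL7A1 spreads from 1.96 to 19.1 CPM within enzalutamide.

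The response to OC2 was then compared between the lines as an interaction over the 57608 gene identifiers present in both tables, LAPC4 against vector minus LNCaP against control. Of 37 members tested 18 had a higher log2 fold change in LAPC4 and 5 a lower one, where 25.4% of all 19633 tested genes were higher and 24.1% lower, with a median of 0.99 against 0.01. The integrins gave 9 higher and 0 lower, of which ITGA2 turned from 0.50 to -0.57 with shCon as the LNCaP reference. COL4A2 differed most among those with counts in every group, by 8.81 (SE 0.24, edgeR adjusted p = 8.63e-12), rising in LAPC4 and falling in LNCaP, and by 5.76 with shCon as the LNCaP reference. ITGA3 differed by 4.90 (SE 0.21), rising in both, and LAMB3 by 4.72 (SE 0.65). ITGB4 differed by 3.45 (SE 0.32), with a fall of 13.5-fold in LNCaP and 1.24-fold in LAPC4. LAMB2 differed by -3.81 against control and by 0.15, not called, against shCon, a reference chosen after the values were seen. The lines also differ in medium and R1881, and in how the counts were made, which cannot be told apart from the line.

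**Figure D4:**
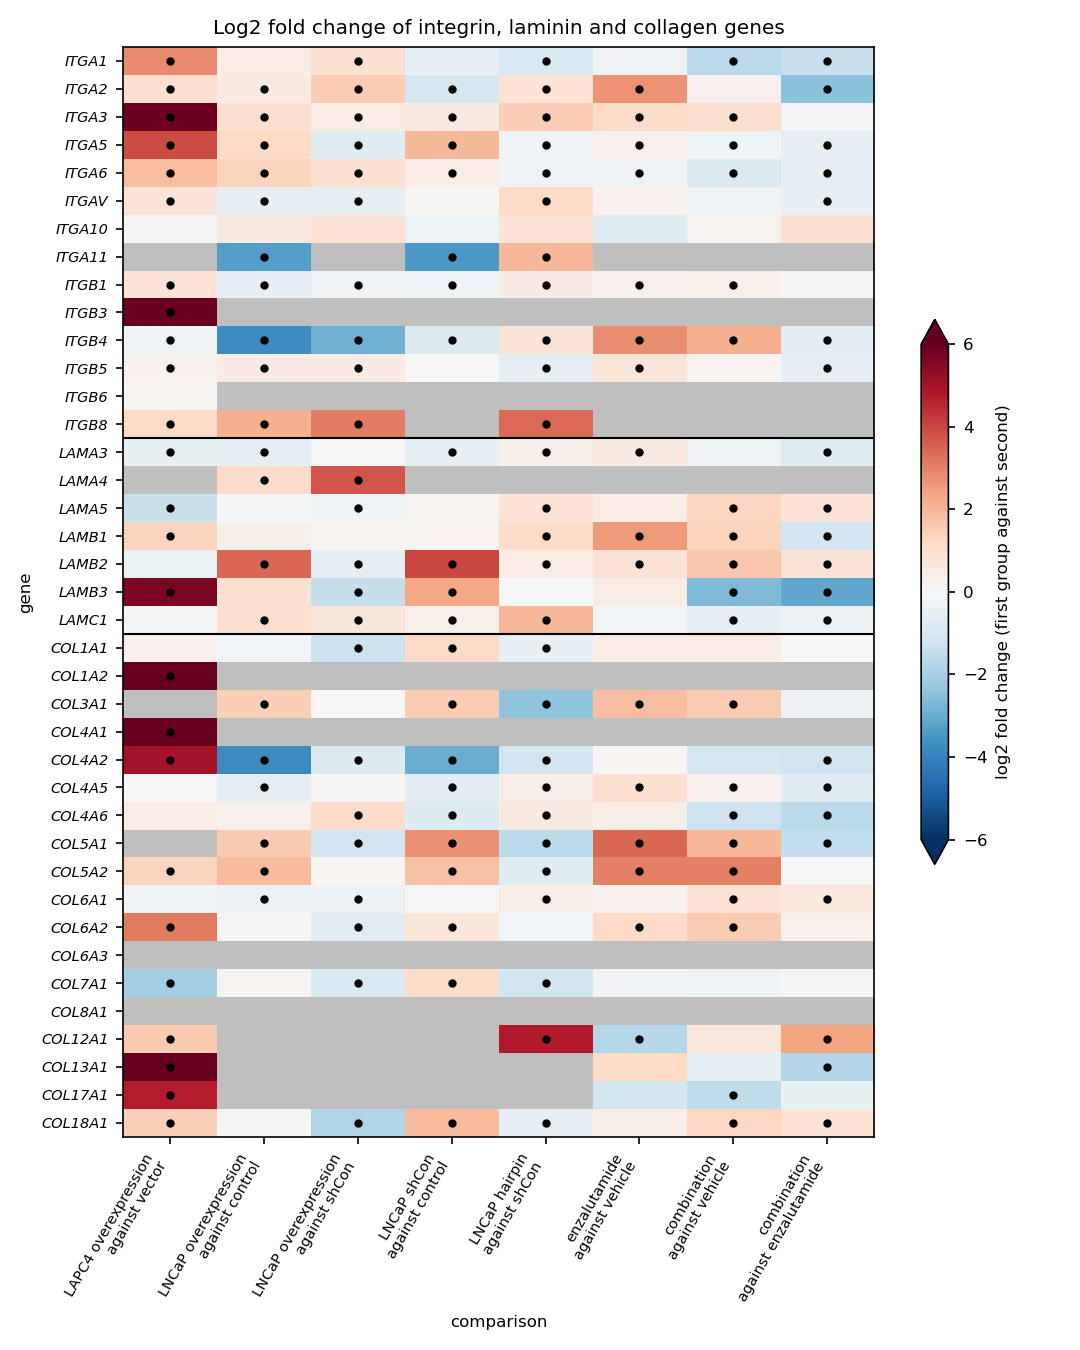
Log2 fold change of the 39 members (rows, split into integrins, laminins and collagens) in 8 comparisons (columns), red for higher in the first group and blue for lower, with values beyond 6 at the end colour, a dot for an edgeR adjusted p below 0.05 and grey for a member not tested. The LAPC4 column has 21 dots on red and 4 on blue.

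Levels of different genes were compared per kilobase of annotated exon, with each table scaled on its own. ITGB1 was the highest of the 14 integrins in every group, from 46.9 CPM per kb in LNCaP overexpression to 145 in LAPC4 overexpression, where ITGA6 followed at 83.2. In LAPC4 vector the laminin chains stood in the order LAMA5 (33.3 CPM per kb), LAMC1 (32.4), LAMB2 (19.7), LAMA3 (11.3), LAMB1 (3.79) and LAMB3 (1.34). With OC2 LAMB3 came first at 66.6, then LAMC1 at 31.3, LAMB2 at 15.1, LAMA5 at 13.2, LAMB1 at 9.58 and LAMA3 at 8.43. In vector the libraries of LAMA5 and LAMC1 overlapped on this scale, so their order is not set. In every LNCaP group LAMB1 and LAMB3 were the lowest of these 6 chains. Among the collagens COL6A1 was highest in every group, from 21.5 to 82.7 CPM per kb, while COL6A3 and COL8A1 stayed at or under 0.339 CPM in every library and were tested in no comparison. ITGA10, a collagen-binding subunit, was called in none of the comparisons by edgeR, at 0.311 to 4.52 CPM. COL4A5 led the type IV chains in every group, but only narrowly in LAPC4 overexpression, at 3.33 CPM per kb beside 2.97 for COL4A2 and 1.72 for COL4A1.

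**Figure D5:**
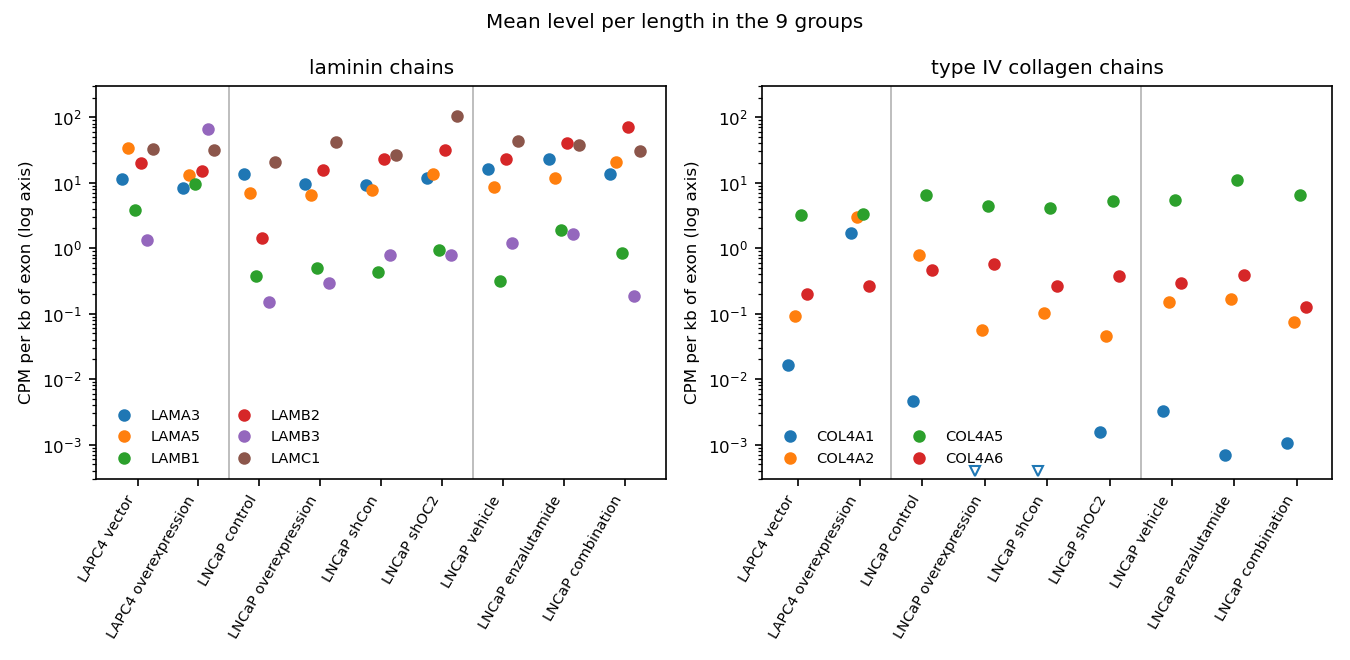
Mean CPM per kilobase of exon (log axis) of 6 laminin chains (left) and 4 type IV collagen chains (right) in the 9 groups, with vertical lines between the 3 tables and open triangles for groups at 0 counts. LAMB3 and the COL4A1/COL4A2 pair climb in LAPC4 overexpression, and LAMB2 is low in LNCaP control.

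RefSeq promoter windows (250 bases before to 50 after the start, GRCh38.p14) were at hand for 30 of the 39 genes, 40 windows in all. The motif ATTGAT, a core bound by ONECUT proteins, was found on either strand in 1 of the 30 genes, ITGB6, and so in 2.50% of the 40 windows, where 6.26% of all 35116 windows hold it. ATCGAT was found in 0 of the 30, where 0.763% of all windows hold it. GGGCGG was in 67.5% of the 40 windows (45.0% of all windows) and CCAAT in 22.5% (34.6%). The 9 genes with no entry, for which no promoter was searched, were ITGA3, ITGB3, ITGB4, COL1A1, COL1A2, COL3A1, COL5A2, COL6A1 and COL8A1.

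Other genes of the same pathway were counted in 7 lists, beside the shares of all tested genes. In LAPC4 overexpression, where 32.1% of all genes were higher and 29.0% lower, 17 of 23 tested integrin adaptor proteins were higher and 1 lower, led by FERMT1, which activates integrins (9.78-fold, 31.9 against 3.25 CPM), and DST, which ties ITGB4 to keratin (3.34-fold). Their median log2 fold change was 0.67 against 0.00 for all genes. Of 19 collagen modifying enzymes 10 were higher and 3 lower, led by PLOD2, a lysyl hydroxylase, at 142 against 3.25 CPM (43.4-fold). Of 20 other matrix proteins and receptors 13 were higher and 5 lower, among them NID1, which links laminin to type IV collagen (149-fold, 43.6 against 0.288 CPM). All 3 tested other laminin chains were higher, with LAMA1 21.4-fold. Of 8 tested other collagens 3 were higher and 1 lower, of 5 other integrin subunits 1 and 1, and of 4 stromal and blood cell markers 2 and 0.

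In LNCaP overexpression against control, with 31.6% of all genes higher and 29.3% lower, the adaptors gave 9 higher and 10 lower of 23, the enzymes 7 and 4 of 18, the other matrix genes 11 and 4 of 19 and the other collagens 10 and 3 of 15. Against shCon, with 33.2% and 30.8% of all genes, the adaptors gave 13 higher and 6 lower of 23, the enzymes 10 and 5 of 18, the other matrix genes 9 and 7 of 18 and the other collagens 8 and 4 of 15. NID1 was 15.2 CPM with OC2 against 0.0465 CPM in control (2 counts), and COL14A1 was 73.1-fold higher than in control. With the hairpin, where 27.3% of all genes were higher and 26.8% lower, the enzymes gave 5 higher and 0 lower of 16 and the adaptors 9 and 7 of 23.

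With enzalutamide, where 34.7% of all genes were higher and 35.6% lower, the other matrix genes gave 10 higher and 3 lower of 15. They were led by TNC, the adhesion-modulating tenascin (114 against 0.567 CPM), and FN1, the fibronectin bound by ITGA5 (8.70-fold). The adaptors gave 6 higher and 9 lower of 24, the enzymes 9 and 5 of 18 and the other collagens 9 and 1 of 13. LAMA1 was 42.8-fold lower with enzalutamide and 64.3-fold lower in the combination, both against vehicle. In the combination against enzalutamide 31.5% of all genes were higher and 30.5% lower. There the other matrix genes gave 1 higher and 9 lower of 15, with TNC at 1.12 CPM. The other collagens gave 1 and 8 of 13, the enzymes 2 and 9 of 18 and the adaptors 11 and 8 of 24. ILK, the kinase-like adaptor of ITGB1, was 0.664 CPM with enzalutamide, 73.1 CPM in vehicle and 79.2 CPM in the combination. Of its exon bases 78.5% are shared with TAF10 and other annotated genes, and the part of counting in this gap was not tested.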

How the data were processed

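RNA from 23 libraries was quantified by the authors. As deposited, the LAPC4 and enzalutamide columns hold whole-number counts per gene, while the LNCaP overexpression and hairpin table and the vehicle and combination columns hold estimated counts, deposited by the authors with decimals, which were rounded here before testing. FastQC 0.9.0, Bowtie2 and the build hg38 are named per the submitters' processing notes. The counting tool, its annotation and its strand setting: each not given in the sources used here. Enzalutamide column names give a group but no replicate.

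CPM was computed here from counts and TMM-scaled totals within each table, and CPM per kb from GENCODE exon lengths. Genes were filtered with filterByExpr and tested with the quasi-likelihood F-test of edgeR 4.0.16 in R 4.3.3, with Benjamini-Hochberg adjustment over all tested genes and a threshold of 0.05. LNCaP comparisons used the groups compared and the drug comparisons all 3 groups of their table. The labels describe no molecular identifiers, so intervals (95%, Clopper-Pearson) cover counting error only. Libraries held 20963995 to 30465978 counts, which limits genes of a few counts.

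All 39 members were eligible to be named. From each of 7 other lists (integrin subunits, laminin chains, collagens, adaptors, collagen enzymes, matrix proteins and receptors, stromal and blood cell markers), up to 3 called genes with the greatest change and at least 5 CPM in the higher group could be named. The members and lists were chosen with earlier results of these data known. Alternatives were DESeq2 1.42.0, library totals, no filter, other sample sets, a replicate block and leaving out each library. The edgeR steps were tested on simulated data.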

Additional observations from a re-analysis of the deposited data

Results flagged for a closer look

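The response to OC2 overexpression differed between LAPC4 and LNCaP for 23 members by the interaction test in edgeR. The values are LAPC4 log2 fold changes (against vector) minus LNCaP log2 fold changes (against control). For the integrins the differences were 2.39 for ITGA1, 0.50 for ITGA2, 4.90 for ITGA3, 2.72 for ITGA5, 0.50 for ITGA6, 1.26 for ITGAV, 4.12 for ITGA11, 1.28 for ITGB1 and 3.45 for ITGB4. All 9 were positive with control as the LNCaP reference, but ITGB1 and ITGAV fell in LNCaP while they rose in LAPC4, and ITGA11 was not tested within LAPC4.

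For the laminin chains the differences were 4.72 for LAMB3, 0.99 for LAMB1, -1.05 for LAMC1, -1.23 for LAMA5 and -3.81 for LAMB2. LAMB2 rests on the low level of the LNCaP control libraries. For the collagens they were 8.81 for COL4A2, 7.64 for COL17A1, 6.37 for COL13A1, 3.07 for COL6A2, 1.34 for COL18A1, 0.62 for COL4A5, -1.93 for COL5A1 and -2.26 for COL7A1. COL5A1 was not tested within LAPC4, and its call was lost in DESeq2 and when any of 7 libraries was left out. COL4A2 was 5.76 with shCon as the LNCaP reference. COL4A1 gave 10.64, a fitted value that depends on the prior count because both LNCaP overexpression libraries had 0 counts, and COL17A1 had 1 count there. With shCon as the reference COL4A1 was 6.63 and not called.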

How the results depend on the processing

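With the hairpin, the 11 members lower became 5 in DESeq2, 7 with no filter and 2 to 10 when 1 library was left out, and the 16 higher became 9 to 14. In LNCaP overexpression against shCon, the 14 lower became 8 to 13 when 1 library was left out. For enzalutamide against vehicle, the 2 lower became 1 with library totals and 1 to 3 when 1 library was left out (1 without vehicle replicate 3). For the combination against enzalutamide, the 5 higher became 1 with library totals, 2 with only the 2 groups in the fit and 2 to 9 when 1 library was left out, where COL5A2 ran from -0.27 to 0.75 and COL7A1 from -0.55 to 1.13. In the hairpin and LNCaP overexpression comparisons, leaving out 1 library left 1 in a group, and fewer of all genes were called then too. With the hairpin, calls over all genes in either direction were 8969 in the main fit, 6182 in DESeq2 and 7122 with no filter. In the combination against enzalutamide they were 10789 in the main fit, 11749 with library totals and 9859 with only the 2 groups. The causes were not tested. With library totals the sign turned for LAMA3 in overexpression against shCon (-0.14), ITGA6 with enzalutamide (0.056) and ITGB1 in the combination against enzalutamide (-0.20). Under that scaling the median of all genes was -0.17 (overexpression against shCon), 0.16 (shCon against control), 0.35 (enzalutamide against vehicle) and -0.28 (combination against enzalutamide). With shCon as the LNCaP reference, chosen after seeing the data, the difference between lines turned sign for ITGA2 (-0.57), LAMA3 (-0.52), LAMB2 (0.15), COL4A5 (-0.12), COL4A6 (-0.78), COL5A1 (0.74) and COL5A2 (1.11), and COL4A1 was not called. Same-numbered replicates deviated together weakly or not at all (correlations of -0.10 to 0.11). With 2 libraries per group the correlations of same and other numbers are opposite by construction. Of 3 combination libraries 2 were closest to the vehicle library of their own number. Whether the numbers pair the libraries is therefore not settled. The replicate block gave 15 higher and 11 lower with the hairpin, 21 and 4 in LAPC4, and kept the direction and call of 209 values, with 4 gained calls (ITGAV, LAMA3, COL1A1 and COL4A2 in the combination against vehicle), 3 lost (LAMA4 in LNCaP overexpression against control, adjusted p = 0.0892 in edgeR, COL4A6 with the hairpin, 0.0532, and COL5A1 between lines, 0.0509) and 0 reversed. In the combination against vehicle the block was fitted on these 2 groups alone, without the enzalutamide libraries. LAMA3 and COL1A1 were also gained with only the 2 groups and no block (log2 fold change -0.25 and 0.46). Those gains are therefore not particular to the block. No paired analysis was possible for enzalutamide because its columns carry no number. Genes of a few counts, such as COL3A1, COL13A1 and ITGA11 in LNCaP, are limited by depth.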
